A study of Mus musculus with 2 samples.

Results

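The suprabasal keratins of cornifying epidermis were described as 6 genes, Krt1, Krt10, Krt2, Krt77, Krt78 and Krt80, picked by name from the 27998 gene rows of 2 single-cell RNA libraries. Each library holds epidermal cells of 1 male C57BL/6J mouse at postnatal day (P) 0 without Chrm3, which encodes an acetylcholine receptor of the muscarinic class. KO mouse 1 and KO mouse 2 share genotype, strain, sex and age, and libraries of wild-type mice were not analysed here, so the genotypes could not be compared. Dorsal skin was incubated overnight in separation buffer, the epidermis was lifted off the dermis, and dead cells were depleted before droplets were made.

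Keratins assemble as pairs of a type I and a type II chain into the intermediate filaments that give keratinocytes (KCs) their strength. Basal KCs of the interfollicular epidermis (IFE) build filaments from Krt5 and Krt14, and KCs that leave the basal layer switch to Krt1, a type II chain, and its type I partner Krt10. Krt2, Krt77, Krt78 and Krt80 are further type II chains of stratified epithelia, and Krt2 is known from the upper layers of body sites such as the ear, tail and sole. As granular cells flatten into corneocytes, filaggrin bundles these filaments and the cornified envelope is cross-linked around them.

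The 5 type II genes lie on chromosome 15 and all 6 genes are on the minus strand (GRCm38, GENCODE M21). Krt1 occupies chr15:101845426-101850794, Krt2 chr15:101810689-101818169, Krt77 chr15:101858731-101869705 and Krt78 chr15:101946001-101954287, each with 9 exons. These 4 lie within 143.6 kb that holds 7 keratin genes. Krt80 sits apart, at chr15:101347444-101370162 with 8 exons, and Krt10 is at chr11:99385254-99389364 with 8 exons. The last 300 bases of each transcript, where 3′ libraries are read, matched no other gene at the near-identity that would let reads be shared. Krt10 overlaps the antisense gene Gm11940, which had 206 UMIs in mouse 1 and 195 UMIs in mouse 2 over all barcodes. Krt80 overlaps the antisense Gm35853 and Mir1941, neither of which has a row in the matrices.

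Promoters are shown beside the courses of the members, in which Krt1, Krt10 and Krt77 moved together over the stages and Krt78 rose later. The part of promoter letters in these courses was not tested. RefSeq start sites on GRCm38.p6 were found for 4 of the 6 genes, not for Krt1 and Krt80. Of these 4, Krt2 has no readable stage level. The 100 bases before the start are given 5′ to 3′ on the gene's strand, with each TATANA match on that strand in capitals.
Krt10, chr11:99389365-99389464, minus strand: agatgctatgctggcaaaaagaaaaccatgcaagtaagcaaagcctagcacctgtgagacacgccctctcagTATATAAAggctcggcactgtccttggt
Krt2, chr15:101818170-101818269, minus strand: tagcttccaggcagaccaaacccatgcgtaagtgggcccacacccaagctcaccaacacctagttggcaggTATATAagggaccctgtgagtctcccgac
Krt77, chr15:101869706-101869805, minus strand: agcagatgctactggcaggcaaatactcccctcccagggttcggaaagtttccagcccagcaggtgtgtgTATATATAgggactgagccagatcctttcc
Krt78, chr15:101954288-101954387, minus strand: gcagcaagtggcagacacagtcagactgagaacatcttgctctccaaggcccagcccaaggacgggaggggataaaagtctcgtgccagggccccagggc
On the gene's strand, the letters TATANA begin 28 and 26 bases before the start of Krt10. They begin 29 before that of Krt2, and 30 and 28 before that of Krt77. A match on the opposite strand of Krt77, at 32 bases, is not fully in capitals. Of 32851 promoters, 3.11% hold TATANA on the gene's strand between 20 and 40 bases before the start. The Krt78 window has no such match, but holds the letters gataaa, which differ from TATANA only in the opening letter. Over 250 bases and both strands, CACCC, letters that KLF factors can bind, was found in Krt10 and Krt2 and in 52.0% of all promoters. TGANTCA (AP-1; 6.75% of promoters) and GCCNNNGGC (AP-2; 13.7%) were found in none of the 4, and TATANA in either orientation occurred in 22.6% of promoters. The letters can overlap and none of these matches is evidence of binding.

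Filters of 900 to 7700 genes per cell and less than 10% of UMIs from mitochondrial genes left 7607 cells in mouse 1 and 11881 in mouse 2, with 95048258 and 148843409 UMIs. Chrm3, the targeted gene, had 13 UMIs in mouse 1 and 19 UMIs in mouse 2, 0.137 (exact Poisson 95% interval 0.0728 to 0.234) and 0.128 (0.0769 to 0.199) UMIs per 1000000 UMIs of the cells (CPM). Reads at the 3′ end need not come from the deleted part, and no wild-type level was measured beside them. The libraries shared 127 cell barcodes, 34 of them among kept cells. Clusters were named from marker lists that held none of the 6 keratins, and the keratins were also kept out of the genes used for clustering. The IFE stages were basal (2000 and 3590 cells in mouse 1 and mouse 2), dividing basal (567 and 1025), transition (406 and 590), differentiated (184 and 240) and terminally differentiated (46 and 60). Krt5 and Lor are in the lists that named clusters, so their levels are partly given by the names. Krt5 was at 6674 and 6588 CPM in basal cells against 293 and 418 CPM in differentiated cells. Lor, the loricrin of the cornified envelope, was at 17754 and 13118 CPM in terminally differentiated cells. Listed markers did not all follow the name of that last stage. Against differentiated cells Flg2 rose by 3.37 on the log2 scale, but so did Krt5, by 2.50. Flg (0.10) and Hrnr (0.94) were not called by the edgeR test described below. Other genes of the same cells formed the clusters, so differences between stages are partly given by the grouping. Because each transcript is counted once at its 3′ end, CPM was compared between genes without dividing by length. Intervals given here cover counting error only.

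Melanocyte-like, Langerhans cell-like and T cell-like clusters, which should make no epidermal keratin, served as the measure of free RNA. Krt1 stood at 325 CPM in mouse 1 and 590 CPM in mouse 2 in these cells combined, and Krt10 at 557 and 784 CPM. Both were thus found in these cells of both libraries, and were higher in mouse 2 in the cells combined. Krt10 in T cell-like cells went the other way, at 911 and 748 CPM. No droplets without cells were examined, so free RNA was not told apart from doublets in these levels. In the combined cells Krt77 was at 1.63 and 0.835 CPM (11 and 9 UMIs) and Krt78 at 2.07 and 3.25 CPM (14 and 35 UMIs). Krt80 was at 0.296 and 0.649 CPM (2 and 7 UMIs). With the 5% of cells with the highest doublet scores left out, Krt77 had 2 and 2 UMIs in Langerhans cell-like cells. It then had 0 and 3 UMIs in melanocyte-like and 0 and 0 in T cell-like cells. Krt1 was then at 297 and 607 CPM in Langerhans cell-like cells, against 486 and 600 CPM before. In melanocyte-like cells it was at 282 and 608 against 254 and 587 CPM, and in T cell-like cells at 526 and 586 against 455 and 586 CPM. With no doublets left out, the 6 keratins made up 0.0886% and 0.138% of the UMIs of the combined cells.

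Krt1 rose steeply on leaving the basal layer, peaked in differentiated cells and was lower in terminally differentiated cells. In basal cells it was at 279 CPM in mouse 1 and 617 CPM in mouse 2, which is 0.859 and 1.05 times the free-RNA level of the same mouse. In transition cells it stood at 10199 and 8975 CPM, in differentiated cells at 27711 and 28232 CPM, and in terminally differentiated cells at 6219 and 3571 CPM. In each mouse the pooled Krt1 level of every suprabasal stage was above the pooled basal level. The differentiated level was 85.3 and 47.9 times the free-RNA level. Single cells did overlap in their share of UMIs from Krt1 and Krt10. The 10th percentile of transition cells was 0.133% and 0.197%, and the 90th percentile of basal cells was 0.142% and 0.250%.

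Krt10, the type I partner, followed the same course. Its level was 549 and 904 CPM in basal cells, again close to the free-RNA level (0.985 and 1.15 times it). It was 8394 and 6590 CPM in transition, 30752 and 26997 CPM in differentiated and 5496 and 3886 CPM in terminally differentiated cells. Both mice gave the same order of the stages named here. Together the 6 keratins took 0.0834% and 0.153% of all UMIs in basal cells, 1.87% and 1.56% in transition, 5.86% and 5.54% in differentiated and 1.19% and 0.758% in terminally differentiated cells.

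Krt77 and Krt80 were low in level. Krt77 was at 3.31 and 2.86 CPM in basal cells, 2.03 and 3.42 times a free-RNA level that rests on 11 and 9 UMIs. With the top-scored doublets left out, basal Krt77 was at 3.35 and 2.98 CPM and fewer free-RNA UMIs remained. It reached 48.8 and 29.9 CPM in transition and 69.6 and 74.8 CPM in differentiated cells. In terminally differentiated cells it was at 19 CPM from 6 UMIs in mouse 1 and 25.1 CPM from 16 UMIs in mouse 2. In basal cells 1 cluster held 50 of the 65 Krt77 UMIs in mouse 1 and 70 of the 102 in mouse 2. Krt80, a type II chain found in many epithelia, was lower than Krt77 at each stage of the main clustering. In terminally differentiated cells their exact Poisson 95% intervals overlap in both mice. Under the finer clustering described below, that stage of mouse 2 had Krt80 at 20.4 CPM and Krt77 at 18.5 CPM. Krt80 was at 0.915 and 1.15 CPM in basal, 3.42 and 4.62 CPM in transition and 7.44 and 7.22 CPM in differentiated cells. In terminally differentiated cells it was at 9.48 and 18.8 CPM, from 3 UMIs in mouse 1 and 12 UMIs in mouse 2. The exact Poisson 95% intervals of basal cells (0.542 to 1.45 and 0.825 to 1.56) overlapped those of free Krt80 RNA (0.0358 to 1.07 and 0.261 to 1.34), which rest on 2 and 7 UMIs.

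Krt78 started late. It remained at its free-RNA level in transition cells, with 1.02 CPM (exact Poisson 95% interval 0.376 to 2.23) in mouse 1 and 4.26 CPM (2.96 to 5.92) in mouse 2, against 2.03 and 3.95 CPM in basal cells. Differentiated cells held 79.7 CPM (72 to 87.9) and 59.6 CPM (53.8 to 65.8). Terminally differentiated cells held 117 CPM (82.3 to 161) and 78.3 CPM (58.1 to 103), from 37 and 50 UMIs. The intervals of differentiated and terminally differentiated cells overlap in both mice. Ranked by level in differentiated cells, Krt1 and Krt10 came first, in no common order in the 2 mice, then Krt77 and Krt78, again in no common order, then Krt80.

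Krt2 was almost absent from this P0 epidermis of dorsal skin, and no other body site was measured. It had 5 UMIs in 5 cells of mouse 1 and 9 UMIs in 9 cells of mouse 2 among kept cells, 0.0526 and 0.0605 CPM. The limit that a count of 0 would allow (3 UMIs) is 0.0316 and 0.0202 CPM. Barcodes removed by the filters held 4 and 2 further UMIs. The gene did not pass the filter on low counts, entered no test, and no stage level could be read from so few UMIs.

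**Figure D1:**
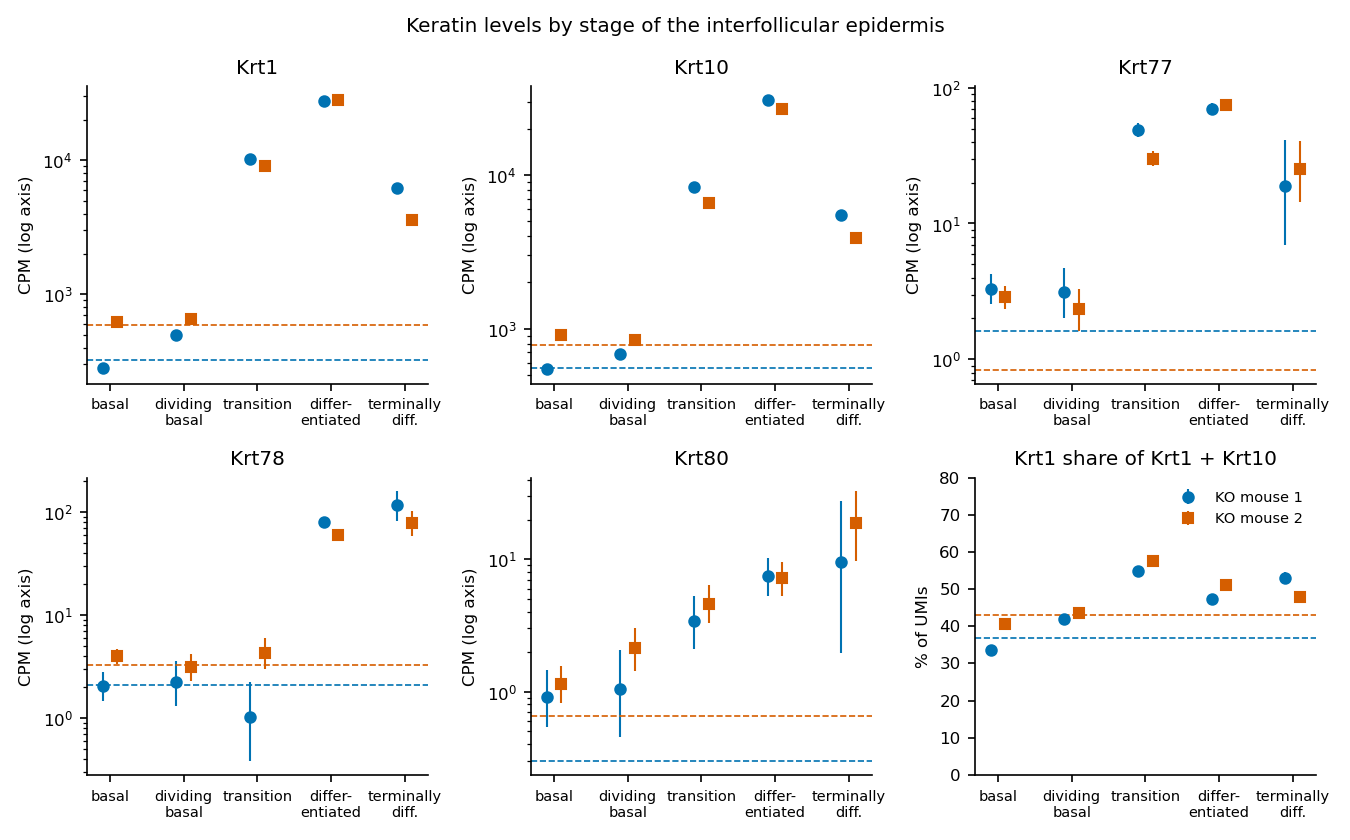
CPM (log axis) of Krt1, Krt10, Krt77, Krt78 and Krt80 in the IFE stages of each mouse, with exact Poisson 95% bars and dashed lines at the free-RNA level of that mouse, and, in the last panel, Krt1 as a percent of Krt1 and Krt10 UMIs. Krt1 and Krt10 leave the dashed lines at the transition stage and reach 27711 and 30752 CPM in differentiated cells of mouse 1, while Krt78 leaves them one stage later.

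UMIs were summed per mouse and stage and tested with edgeR's quasi-likelihood test in a fit of 10 sums and 12062 genes, in which the mouse is the replicate. The fit had 5 residual degrees of freedom. From basal to transition, 4 of the 5 keratins tested rose, beside 16.3% of all genes tested that were called higher and 17.1% called lower. As log2 fold change, Krt1 rose by 4.55 (standard error 0.340, adjusted p = 1.155e-06), Krt10 by 3.49 (0.233, adjusted p = 4.869e-07), Krt77 by 3.80 (0.209, adjusted p = 1.107e-07) and Krt80 by 2.07 (0.335, adjusted p = 0.0004742). Krt78 differed by -0.0037 with a standard error of 0.478 (adjusted p = 0.998). The basal levels of Krt1 and Krt10 lay at the free-RNA level, so their fold changes depend on it. The Krt1 change was 4.0 without mouse 1 and 5.32 without mouse 2. The Krt77 call was lost when IFE cells were clustered again at resolution 0.8 (0.80, adjusted p = 0.164), and where no separate differentiated cluster formed, without integration or under a limit of 5% mitochondrial UMIs, Krt78 was called higher in transition cells (3.67 and 4.94).

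From transition to differentiated, all 5 keratins tested rose, where 16.4% of all genes were called higher and 14.2% lower. Krt78 had the largest change among them, 4.68 (standard error 0.381, adjusted p = 2.308e-06). Krt10 rose by 2.04 (adjusted p = 2.058e-05), Krt1 by 1.64 (adjusted p = 0.001387), Krt77 by 0.99 (adjusted p = 0.001125) and Krt80 by 0.92 (adjusted p = 0.04026). The Krt80 call was lost without TMM scaling, at 0.84 (adjusted p = 0.05266). The Krt78 change was 3.84 without mouse 1 and 6.40 without mouse 2, and the Krt77 change 1.36 and 0.65.

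From differentiated to terminally differentiated, 3 of the 5 keratins tested fell, where 14.6% of all genes were called lower and 14.2% higher. As log2 fold change, Krt10 fell by 2.95 (adjusted p = 2.498e-06), Krt1 by 2.85 (adjusted p = 3.861e-05) and Krt77 by 1.95 (adjusted p = 0.001076). Krt78 differed by 0.11 with a standard error of 0.366 (adjusted p = 0.860), and Krt80 by 0.79 with a standard error of 0.475 (adjusted p = 0.245). Other markers moved with this stage. The 13 basal IFE markers summed to 11396 and 12756 CPM in terminally differentiated cells against 3968 and 4878 CPM in differentiated cells, with none at 0. The 13 markers of dividing cells, none at 0, summed to 2280 and 1883 CPM against 191 and 449 CPM. The Krt80 difference was 1.17 without mouse 1 and -0.055 without mouse 2. The part of the basal and dividing markers in the lower Krt1 and Krt10 levels was not tested. The stage was also shallow, with a median of 5209.5 and 9060.5 UMIs per cell against 23575.5 and 22658 in differentiated cells.

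None of the 5 keratins tested was called between dividing basal and basal cells, where 11.3% of all genes were called higher and 8.01% lower. Krt1 was at 496 and 654 CPM in dividing basal cells and differed by 0.27 (standard error 0.295, adjusted p = 0.561), and Krt10 at 689 and 843 CPM differed by -0.0072 (standard error 0.212, adjusted p = 0.989). Krt80 differed by 0.61 (standard error 0.361, adjusted p = 0.267). Of dividing basal cells 9.17% and 9.95% were among the 5% with the highest doublet scores. Without those, Krt1 was at 294 and 480 CPM and differed by -0.30 (adjusted p = 0.530), Krt10 at 509 and 719 CPM, and Krt77 at 2.91 and 0.427 CPM. With the mouse as a block, 4129 genes were called in this comparison in place of 2325, and still none of the 5 keratins tested. With no filter on low counts, Krt1 was called, at 0.25 (adjusted p = 0.03271).

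Among single cells the share of UMIs from Krt1 and Krt10 varied widely in the transition stage and was at least 1% in most differentiated cells. Krt1 and Krt10 took a median of 5.76% and 5.20% of a differentiated cell's UMIs, with a 10th percentile of 2.31% and 1.85%. In transition cells the median was 1.07% and 0.947%, and the 10th and 90th percentiles were 0.133% and 4.07% in mouse 1 and 0.197% and 3.55% in mouse 2. At least 1% of UMIs in Krt1 and Krt10 was reached by 208 of 406 and 283 of 590 transition cells, and by 173 of 184 and 234 of 240 differentiated cells. In basal cells it was reached by 2 of 2000 and 4 of 3590, and in melanocyte-like cells by 1 of 437 and 1 of 727. Dividing basal cells gave 6 of 567 (1.06%, exact binomial 95% interval 0.389% to 2.29%) and 8 of 1025 (0.780%, 0.338% to 1.53%). Terminally differentiated cells were the most uneven, with medians of 2.18% and 0.377% and a 10th to 90th percentile range of 0.0521% to 6.60% in mouse 1 and 0.100% to 3.79% in mouse 2.

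Shares of cells with a UMI were compared after each cell was thinned to 3000 UMIs, which left out shallower cells (7 and 79 basal, 13 and 11 melanocyte-like, 20 and 14 terminally differentiated). Krt1 was then found in 55.5% and 82.6% of basal cells and in 54.5% and 79.7% of melanocyte-like cells, so that basal Krt1 was at the background of free RNA. Krt10 was found in 80.7% and 92.7% of basal cells against 74.8% and 89.7% of melanocyte-like cells. Before thinning, 90.5% and 98.9% of basal cells and 90.6% and 99.2% of melanocyte-like cells had a Krt1 UMI, at median depths of 9155.5 and 9411 against 8786 and 9667 UMIs.

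The low-abundance members were detected in few of the thinned cells of any stage. Krt77 was found in 18.6% and 14.8% of thinned differentiated cells, in 6.91% and 4.09% of transition cells, in 1.00% and 0.883% of basal cells and in 0.236% and 0.279% of melanocyte-like cells. Krt78 was found in 9.84% and 9.75% of thinned differentiated cells and in 11.5% and 19.6% of terminally differentiated cells, against 1.18% and 1.12% of melanocyte-like cells. Unthinned, 45.7% and 40.4% of differentiated cells had a Krt77 UMI and 28.8% and 26.7% a Krt78 UMI. At these depths a cell without a UMI cannot be read as a cell without the transcript.

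The balance of the pair shifted along the stages. Krt1 made up 54.9% and 57.7% of Krt1 and Krt10 UMIs in transition cells and 47.4% and 51.1% in differentiated cells, a lower share in both mice. In free RNA it made up 36.8% and 42.9%, and in basal cells 33.7% and 40.6%. Mouse 2 had the higher share in each of these 4. In terminally differentiated cells it was 53.1% and 47.9%, with no common order against differentiated cells. No test was made of these shares, which are descriptions.

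Cells were also ordered within the IFE by a score of 11 genes that rise and 8 that fall with differentiation, none of them a member, and divided into 10 bins of equal size. Krt1, Krt10, Krt77, Krt78 and Krt80 each had their highest CPM in the last bin in both mice. Krt1 was at 1135 and 1121 CPM in bin 8, 6365 and 3105 CPM in bin 9 and 25002 and 21942 CPM in bin 10. Krt77 was at 12.4 and 3.63, then 38.3 and 12.8, then 66.8 and 62.8 CPM. Krt78 was at 2.16 and 5.02, then 3.80 and 4.70, then 61.6 and 40.3 CPM, so that its rise fell within the last bin. Splitting the last 2 bins into 5 parts (a to e) separated the members further. Terminally differentiated cells numbered 33 in part c, 30 in part d and 10 in part e, and part e held 316 differentiated cells. The score thus did not place the terminally differentiated stage last. Krt77 was highest in part d, at 91.2 and 75.9 CPM, and stood at 48.3 and 64.4 CPM in part e. The ordered cells included suprabasal cells with Krt79 (upper follicle-like, described below), in which Krt77 was at 240 and 226 CPM. Their part in the Krt77 levels of parts a to e was not tested. Krt78 went from 13.5 and 19.1 CPM in part d to 109 and 67.0 CPM in part e, and Krt1 from 19427 and 14827 to 31187 and 30745 CPM.

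**Figure D2:**
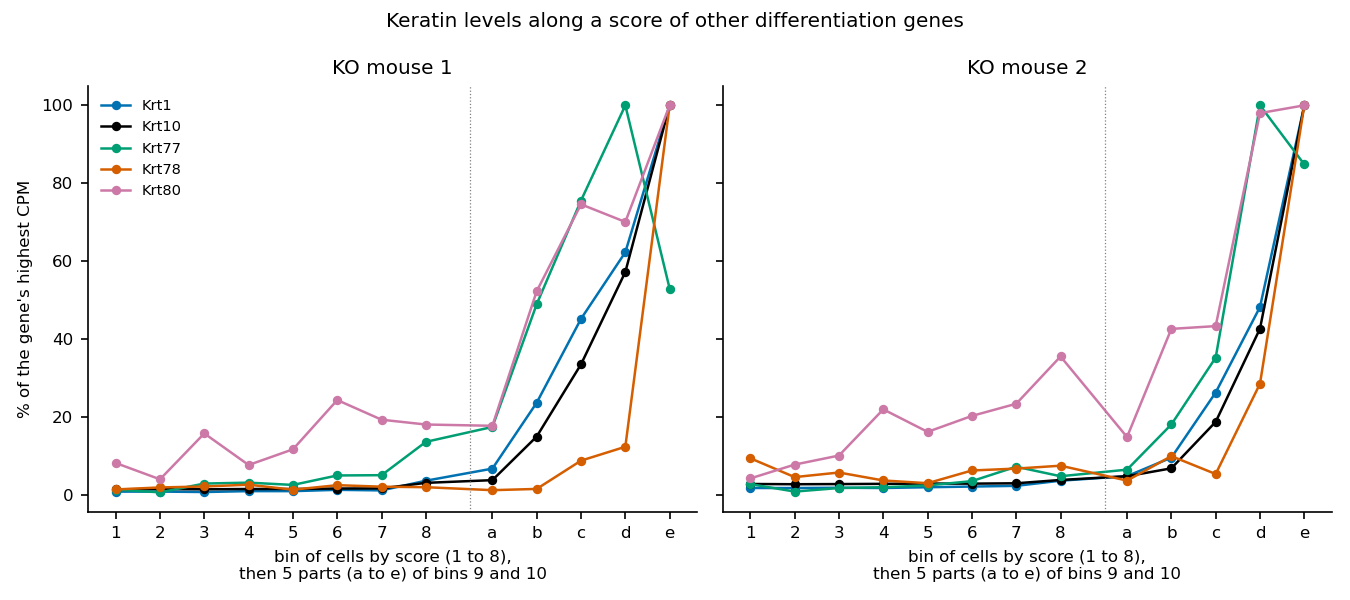
Level of each keratin as a percent of its own highest CPM (y axis) in IFE cells ordered by the differentiation score (x axis), in bins 1 to 8 and then the 5 parts a to e of bins 9 and 10, for each mouse. Krt77 is highest in part d, with overlapping intervals of parts d and e in mouse 2. The ordered cells include Krt79-positive upper follicle-like cells, in which Krt77 was at 240 and 226 CPM. Krt78 stays low up to part d and is highest in part e. Part e holds 316 differentiated and 10 terminally differentiated cells.

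A finer clustering of the IFE alone (resolution 1.2) split the transition and differentiated stages. A transition subcluster with 239 and 374 cells held Krt1 at 8341 and 6915 CPM and Krt10 at 6261 and 4609 CPM, and another with 122 and 166 cells held them at 23994 and 23926 CPM and at 25529 and 21900 CPM. Krt78 was at 1.18 and 3.27 CPM in the first and 2.62 and 4.86 CPM in the second, so it stayed near free RNA in cells whose Krt10 was already high. The differentiated cells of this clustering (82 and 83) held Krt78 at 144 and 125 CPM, Krt1 at 33268 and 37483 CPM and Krt10 at 37680 and 36404 CPM. The Krt1 share of the pair fell in this order in both mice, from 57.1% and 60.0% to 48.5% and 52.2% and then to 46.9% and 50.7%. The transition subclusters are ordered here by Krt10, which is part of the share, so the fall between them is partly given by that order. The terminally differentiated cells (43 and 50) held Krt78 at 125 and 88.8 CPM, and under this clustering edgeR called Krt78 lower in them than in differentiated cells, by -0.84 (adjusted p = 0.0288).

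In the finer clustering Krt77 was highest in a cluster set apart from the differentiated and transition cells. This suprabasal cluster with Krt79, a keratin of the upper hair follicle (105 and 140 cells, upper follicle-like), held Krt77 at 240 and 226 CPM, against 43.1 and 40.1 CPM in differentiated cells and 16.2 and 31.8 and 7.96 and 3.67 CPM in the transition subclusters. Krt1 (10491 and 12292 CPM) and Krt10 (7988 and 9723 CPM) were there at levels between the transition subclusters, and Krt78 was at 3.51 and 13.8 CPM. Krt80 was at 14.0 and 12.9 CPM, against 7.50 and 8.16 CPM in differentiated cells. This cluster was picked out after its values were seen, and no test was made of it. In the clustering of all cells 105 of its cells had been called differentiated, 138 transition and 2 basal, which is 24.8% of the differentiated and 13.9% of the transition cells. The 11 upper follicle markers moved with the stages, summing to 96.3 and 98.6 CPM in basal, 891 and 446 CPM in transition, 2098 and 1789 CPM in differentiated and 7627 and 5751 CPM in the Krt79-positive cluster. With stages taken from the finer clustering, which set these cells apart, Krt77 rose by 2.16 from basal to transition in place of 3.80 and by 1.86 from transition to differentiated in place of 0.99.

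**Figure D3:**
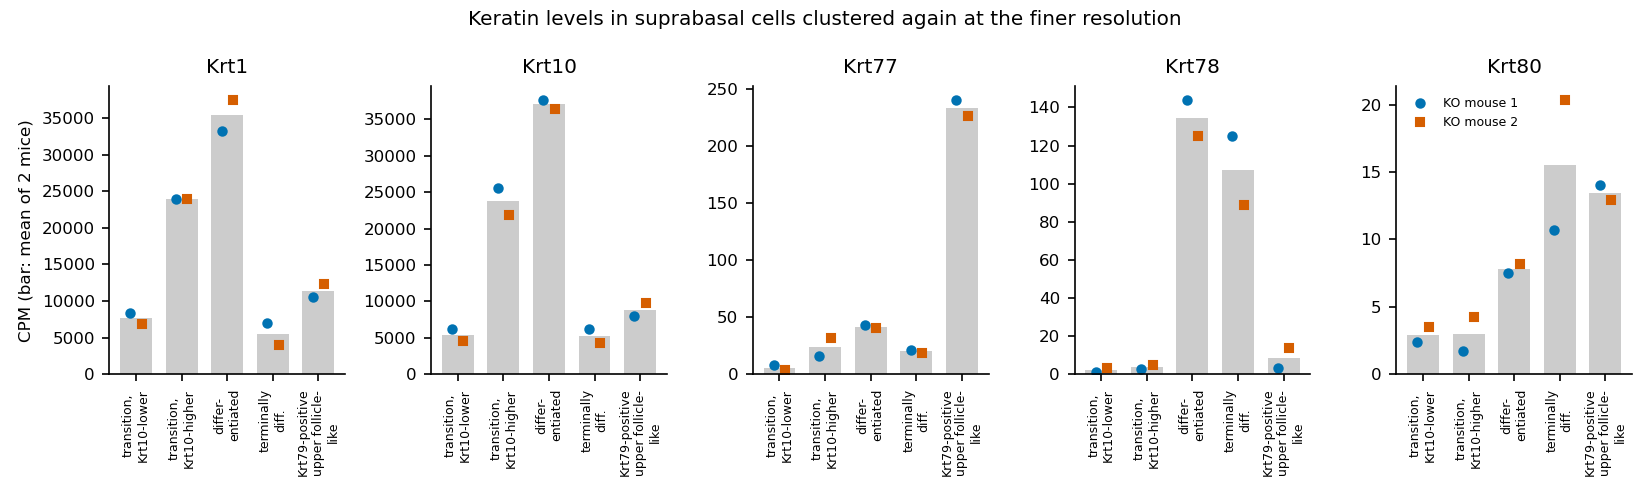
CPM of Krt1, Krt10, Krt77, Krt78 and Krt80 (bars, mean of the 2 mice; points, each mouse) in the Krt10-lower and Krt10-higher transition subclusters, the differentiated, the terminally differentiated and the Krt79-positive upper follicle-like cells of the finer clustering. Krt77 stands at 240 and 226 CPM in the Krt79-positive cells and at 43.1 and 40.1 CPM in differentiated cells, and Krt78 is high in the differentiated and terminally differentiated cells.

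Follicle cells outside the IFE carried Krt77 and Krt80 as well. In the main clustering of all cells the upper follicle-like cluster held Krt77 at 61.4 and 24.5 CPM and Krt80 at 14.6 and 8.43 CPM. Its Krt1 (297 and 708 CPM) was at 0.914 and 1.2 times the free-RNA level. Its Krt10 (426 and 783 CPM) was at 0.765 and 0.998 times that level. This cluster was deep (median 15281 and 16014.5 UMIs), and CPM and UMIs per cell read differently in it. Per cell it held 6.05 and 15.2 Krt1 UMIs against 3.47 and 6.63 in the free-RNA cells. For Krt10 these were 8.68 and 16.8 against 5.94 and 8.82. Dividing hair follicle-like cells, of like depth (15226.5 and 15646), held Krt1 at 168 and 369 CPM and Krt10 at 373 and 557 CPM. The Krt1 and Krt10 levels of upper follicle-like cells depended on the processing. Without integration they were at 1560 and 2411 CPM (Krt1) and 1515 and 2191 CPM (Krt10). Under the lower mitochondrial limit Krt1 was at 665 and 1861 CPM. Melanocyte-like cells held Krt1 at 254 and 586 CPM without integration and 353 and 621 CPM under that limit. With the top-scored doublets left out, upper follicle-like Krt1 was at 345 and 717 CPM. The cause was not tested. Hair follicle-like cells held Krt77 at 0.356 and 0.660 CPM and Krt80 at 0.593 and 0.734 CPM. Among the basal clusters, the one led by Ccl27a and Pou3f1 held Krt77 at 10.3 and 7.70 CPM, and the other basal clusters at 1.91 CPM or less. Krt80 was at 2.48 and 2.75 CPM there and at 0.991 CPM or less in the others.

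**Figure D4:**
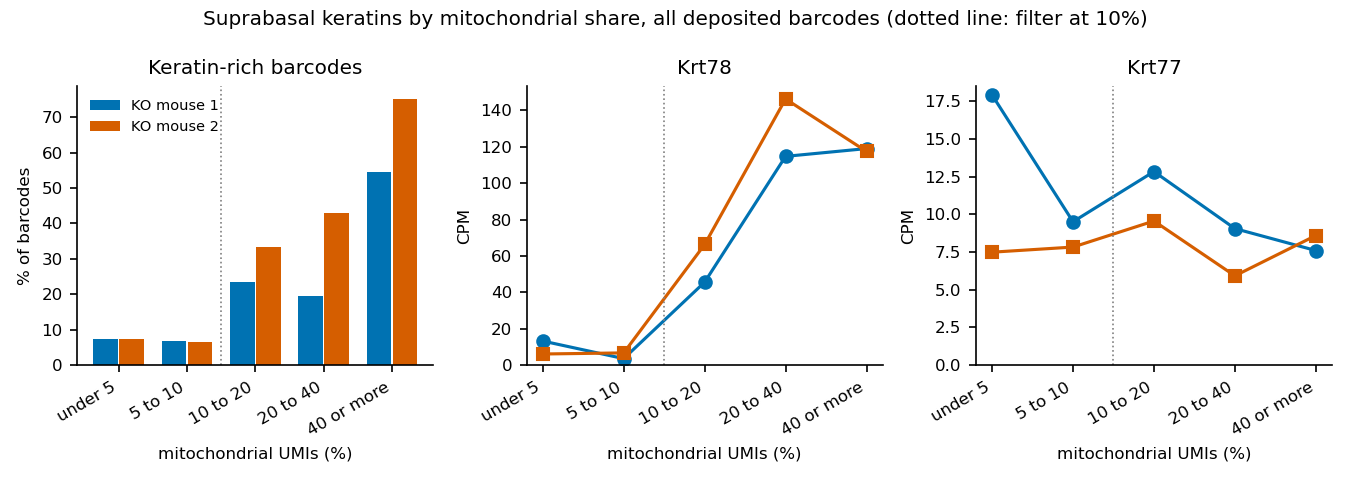
Percent of barcodes with at least 1% of UMIs in Krt1 and Krt10, and CPM of Krt78 and Krt77, by the barcode's percent of mitochondrial UMIs in each mouse, with a dotted line at the filter of 10%. Keratin-rich barcodes make up 7.27% and 7.47% of barcodes under 5% and 54.5% and 75.1% of those at 40% or more. Barcodes of all depths are included, also shallow ones in which free RNA can come near 1%.

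The filters on cells removed most barcodes called keratin-rich, of which part were too shallow to be set apart from free RNA. Of barcodes with at least 1% of UMIs in Krt1 and Krt10, 68.9% in mouse 1 and 75.6% in mouse 2 failed a filter. Those removed for the mitochondrial share alone had a Krt78 level of 179 and 205 CPM against 49.1 and 37.0 CPM in kept rich cells, Flg, the filaggrin gene, at 16216 and 19378 against 2844 and 2073 CPM, and Krt77 at 14.9 and 9.35 against 57.4 and 50.3 CPM. The Krt1 share of the pair was 37.1% and 42.3% in them and 49.0% and 52.3% in kept rich cells. Median depth was 5034 and 4982 UMIs, and the median mitochondrial share 39.9% and 32.0%, against 17374 and 16385 UMIs and 5.56% and 5.23%. Krt2 stayed near 0 there too, with 1 and 2 UMIs. The limit of 1% is a cut on a range, and 492 and 973 barcodes had between 1% and 2%, 889 and 1429 between 0.5% and 1%. Of the removed rich barcodes, 163 and 522 failed both the mitochondrial and a gene limit, and 132 and 304 had too few genes alone. Their median depths were 1030 and 1205, and 725 and 760 UMIs. Free-RNA cells held 3.47 and 6.63 Krt1 and 5.94 and 8.82 Krt10 UMIs each, near or past 1% at such depths. The part of free RNA in these shallow barcodes was not tested.

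Without the mitochondrial limit, an alternative added after seeing the data, the late stages held other cells. A terminally differentiated cluster led by Flg and Hrnr (292 and 363 barcodes, 100% and 95.6% of which the limit removes) held Krt78 at 365 and 389 CPM with Krt10 at 17908 and 21512 CPM and Krt1 at 11670 and 16492 CPM. With mitochondrial UMIs left out of the total, Krt10 was at 27022 and 28610 CPM there. A cluster led by Lce genes (78 and 66 barcodes) held Krt10 at 8288 and 5475 CPM and Krt78 at 115 and 85.7 CPM. In the edgeR fit of these cells the terminally differentiated stage no longer differed past the threshold from the differentiated stage in Krt1 (-0.37, adjusted p = 0.482) or Krt10 (-0.60, adjusted p = 0.140), and Krt78 was higher by 2.60 (adjusted p = 6.417e-07). The cluster named transition then held 72.9% of the cells that had been called differentiated. Of the cluster named differentiated, 98.7% and 99.3% were barcodes that the limit removes, so the steps do not compare the same cells. The cluster led by Lce genes held 84.9% of the cells that had been called terminally differentiated. Its Krt10 was below that of the cluster named transition (20141 and 17144 CPM). Its Krt1 was also lower, at 7419 and 4875 against 19098 and 18873 CPM. The fall of Krt1 and Krt10 in the main fit was measured in cells that pass the limit.

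The other keratins were followed as a list of 18 genes, of which 13 were tested. From basal to transition 5 (38.5% of those tested) rose and 1 (7.69%) fell, beside 16.3% and 17.1% of all genes, with a median of 0.62 on the log2 scale over the 13 against -0.012 over all genes. Krt16, a type I chain of activated epidermis, rose by 4.83, from 5.29 and 9.36 to 195 and 200 CPM (mouse 1, mouse 2), and Krt7, a simple-epithelium chain, fell by 1.16. Krt8, another simple-epithelium chain, was called higher on 0 UMIs in mouse 1 and 16 UMIs in mouse 2, against 2 and 2 UMIs in basal cells. From transition to differentiated 6 (46.2%) rose and 5 (38.5%) fell, beside 16.4% and 14.2% of all genes (median 1.42 against -0.031). The basal chain Krt5 fell by 4.04, Krt23 rose by 4.73, and Krt9, a chain of the palms and soles, was called lower on 4 and 7 UMIs in transition cells and 0 UMIs in differentiated cells of both mice. Krt6b rose by 5.75, but stood at 3.02 CPM in mouse 1 and 90.1 CPM in mouse 2.

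In terminally differentiated cells 3 of the other keratins (23.1%) rose and 2 (15.4%) fell, beside 14.2% and 14.6% of all genes, so that the share that fell was near that of all genes (median -0.40 against 0.0013). Krt23 rose by 3.56 to 199 and 175 CPM, Krt5 rose by 2.50, Krt16 fell by 4.18 and Krt79 fell by 2.02. In dividing basal cells 1 (7.69%) rose and 2 (15.4%) fell, beside 11.3% and 8.01% of all genes (median 0.21 against -0.016). These were Krt8, higher on 12 and 12 UMIs against 2 and 2 in basal cells, Krt15, lower by 0.93, and Krt14, lower by 0.52. Krt5, Krt14, Krt15, Krt79, Krt23, Krt7, Krt8 and Krt18 are also in the lists that named clusters, so part of these counts is given by the naming.

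Among 19 transcription factors of suprabasal differentiation, 13 (68.4%) rose and 1 (5.26%) fell from basal to transition, beside 16.3% and 17.1% of all genes (median 0.83 against -0.012), the same step at which Krt1, Krt10 and Krt77 rose. Zfp750, a regulator of terminal differentiation, rose by 4.95, Notch3 by 4.89, and Trp63, the factor of the basal state, fell by 0.56. From transition to differentiated 8 (42.1%) rose and 4 (21.1%) fell, beside 16.4% and 14.2% of all genes (median 0.062 against -0.031), led by Prdm1 (2.49) and Grhl3 (1.68), with Notch1 lower by 1.30 and Trp63 lower by 0.83. In terminally differentiated cells 3 (15.8%) rose and 8 (42.1%) fell, beside 14.2% and 14.6% of all genes (median -0.62 against 0.0013), among them Prdm1 (2.04) and Trp63 (0.76) upward and Klf4 (-1.98) downward. In dividing basal cells none rose and 4 (21.1%) fell, beside 11.3% and 8.01% of all genes (median -0.26 against -0.016), with Pou2f3 lower by 0.82. Zfp750 is in the list that named transition clusters.

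The anchors and matrix of keratin filaments (20 genes of the desmosome, plakins, filaggrin family and envelope, 19 tested) gave 9 (47.4%) higher and 1 (5.26%) lower from basal to transition, beside 16.3% and 17.1% of all genes (median 0.61 against -0.012). The desmogleins Dsg1a and Dsg1b rose by 2.90 and 2.53, and Plec fell by 0.34. From transition to differentiated 13 (68.4%) rose and 2 (10.5%) fell, beside 16.4% and 14.2% of all genes (median 1.49 against -0.031), with the envelope genes Ivl at 5.72 and Rptn at 5.25 and the basal desmoglein Dsg3 lower by 1.52. In terminally differentiated cells 2 (10.5%) rose and 11 (57.9%) fell, beside 14.2% and 14.6% of all genes (median -1.11 against 0.0013). Flg2 rose by 3.37 and Lor by 2.89, while Dsg1a and Dsg1b fell by 2.29 and 2.18, in the same direction as Krt1 and Krt10. In dividing basal cells none rose and 5 (26.3%) fell, beside 11.3% and 8.01% of all genes (median -0.32 against -0.016), with Ppl lower by 0.93 and Dsp by 0.48. Dsg1a, Dsc1, Flg, Flg2, Hrnr and Lor are in the lists that named the later stages.

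The genes most like each keratin were found by Pearson's r of log2(CPM + 10) over the 10 sums, which share libraries and differ mainly in stage, so high values are common and no p is given. Fabp5, an epidermal fatty acid binding protein, was nearest to Krt1 (r = 0.991), followed by Zfp750 (0.989) and Rhov (0.985). Krt10 was nearest to Sdr16c6 (0.994), Dsg1a (0.994) and Fabp5 (0.993), and Krt77 to Dsg1a (0.993), Sdr16c6 (0.992) and Cebpa (0.990). Krt78 had other neighbours, Lypd5 (0.998), Bpifc (0.997) and Calml3 (0.996). Calml3, a calmodulin-like gene, stood at 1.88 and 2.80 CPM in transition, 113 and 81.1 CPM in differentiated and 193 and 155 CPM in terminally differentiated cells. Krt80 was nearest to Tekt5 (0.961), Ppif (0.959) and Asah2 (0.958). It lay below the added 10 CPM in all stages before the last, where it rests on 3 and 12 UMIs. The r values of Krt80, also that with Krt78, are therefore imprecise. Between members, r was 0.993 for Krt1 with Krt10, 0.982 for Krt10 with Krt77, 0.850 for Krt78 with Krt80 and 0.652 for Krt10 with Krt78.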

How the data were processed

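Single-cell 3′ libraries of 2 Chrm3 KO mice were analysed. The authors processed reads with Cell Ranger 3.0.2 (mm10) and deposited a table of UMI counts for each barcode and gene. The study's limits on cells had not been applied to it, and barcodes outside it could not be examined. The labels and the study's methods name different Chromium chemistries. Barcodes numbered 10816 and 15867. The study's limits on cells (900 to 7700 genes, less than 10% of UMIs mitochondrial) left 19488 (7607 and 11881, a few more than the study states). Counts were log-normalized, integrated (2000 variable genes, 30 dimensions) and clustered (resolution 0.8) in Seurat 5.3.0 under R 4.3.3. Clusters were named for the list best represented among its 10 leading genes, with at least 3 enriched markers, and 18.4% and 17.0% of cells stayed unnamed. Scrublet (scanpy 1.11.5) set an automatic limit that marked 0.0263% and 3.50% of cells, which had not worked in mouse 1. The 5% of cells with the highest score per mouse (380 and 594) were left out as an alternative instead, and no doublets were removed otherwise.

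UMI counts summed per mouse and stage were tested with edgeR 4.0.16 (TMM, filterByExpr, quasi-likelihood F-test, Benjamini-Hochberg over 12062 genes). The scripts were tested on simulated data. Sums with the same number come from the same mouse, so the numbers pair them; the correlation of their deviations from the stage means was 0.0132 to 0.38 over 10 pairs (median 0.121). The mouse as a block was an alternative, as were DESeq2 1.42.0, no TMM, no filter, leaving out each mouse, no integration, under 5% mitochondrial UMIs and resolution 1.2 for IFE cells. Named beyond the 6 keratins are, per list and step, up to 2 called genes with the largest changes each way, and the 3 genes most like each keratin; 1 gene that this rule names is not reported here. The finer clusters, follicle and basal clusters and other levels were described after their values were seen. The members and lists were chosen with earlier results of these data known. The labels tie each library to a replicate number and say nothing of litter or day, so p-values measure the spread between these 2 libraries. Gene positions are from GENCODE M21 and promoters from RefSeq (GRCm38.p6). Sequences of the other 2 promoters were not used here.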

Additional observations from a re-analysis of the deposited data

Results flagged for a closer look

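Barcodes with at least 1% of their UMIs in Krt1 and Krt10 made up 39.6% of the 1615 barcodes removed for their mitochondrial share alone in mouse 1 (exact binomial 95% interval 37.2% to 42%) and 45.2% of 2073 in mouse 2 (43.1% to 47.4%), against 5.56% and 4.79% of kept cells. They are listed here because they lie in data that the tests of stages do not use. Their mitochondrial share, lower depth and high Flg moved together, and the part of each was not tested.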

How the results depend on the processing

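The calls of the 5 tested keratins were the same as reported under DESeq2, with the top-scored doublets left out and with the mouse as a replicate block, which moved genes called from 2325 to 4129 for dividing basal against basal. Without TMM the call of Krt80 from transition to differentiated was lost, and the median of all genes moved to -0.14, -0.12 and 0.30 over the 3 steps from basal to terminally differentiated. With no filter, 1 keratin was called in dividing basal cells. No cluster took the name differentiated without integration or under 5% mitochondrial UMIs, so only steps without it have values there, and Krt78 changed by 3.67 and 4.94 from basal to transition. With IFE cells clustered again, Krt78 changed by -0.84 (resolution 1.2) and -1.88 (resolution 0.8, added after seeing the data) in the last step, where Krt80 changed by -1.17 and 5 keratins were called at 0.8. With no mitochondrial limit, also added, Krt78 changed by 3.67 from basal to transition, 3 keratins were called from transition to differentiated (Krt77 -2.27, Krt78 0.74, Krt80 -1.41), and changes not called were -0.10 for Krt1 in that step and 0.22 for Krt77 in the last step. The cause was not tested. For no filter, resolution 0.8 and no mitochondrial limit, the shares of all genes called are not given. The counts of keratins called there therefore cannot be set beside such shares.

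Leaving out a mouse gave ranges from basal to transition of 4.0 to 5.32 (Krt1), 3.00 to 4.06 (Krt10), 3.52 to 4.0 (Krt77), -0.85 to 0.24 (Krt78) and 2.01 to 2.13 (Krt80). With 1 sum left per stage these fits have no residual degrees of freedom and no test. In terminally differentiated cells Krt77, Krt78 and Krt80 rest on 3 to 50 UMIs per mouse, which limits their precision.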
